A study of Homo sapiens with 12 samples.

Results

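The genes described here are 10 genes of glucose uptake and glycolysis, namely SLC2A1, SLC2A3, HK2, PFKP, ALDOA, GAPDH, ENO1, PKM, LDHA and PDK1, out of 20030 genes in the expression table. They were chosen by name for their place in the pathway, with earlier results of these data known, and the rule uses no measured value. Messenger RNA was sequenced in 12 libraries from MOLM-13 and THP-1, established human acute monocytic leukemia cell lines that both carry an MLL rearrangement. MOLM-13 carries the FLT3/ITD mutation and THP-1 has wild-type FLT3. In each line, 3 libraries came from cells given DMSO as the control and 3 from cells given JOA (Jiyuan oridonin A, a kaurene diterpenoid from Isodon rubescens), at 0.5 μM in MOLM-13 and 2 μM in THP-1, for 48 h according to the labels. Line, FLT3 status and dose therefore differed together and cannot be told apart. The labels do not say whether the libraries of a group came from separate cultures, so the p-values measure the spread between these libraries, which may be technical.

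The deposited values are FPKM, fragment numbers divided by gene length and by library size, so levels of different genes are compared here per length. They hold no read counts, and with the depth of each library unknown the counting error of a value could not be given. The summed FPKM of a library lay between 291127 and 325023. Of 10 myeloid and monocytic marker genes, 9 had a mean of at least 1 FPKM in every group, with the summed level between 1090 and 3660 FPKM over the 12 libraries, while CD14, a monocyte surface marker, stayed below 1 FPKM in all of them. The MLL leukemia markers HOXA9 and MEIS1 summed to 18.1 to 68.1 FPKM. The highest summed level in any library was 0.209 FPKM for 2 erythroid, 3.80 FPKM for 3 T cell, 1.08 FPKM for 3 B cell and 1.06 FPKM for 3 fibroblast markers. Of the erythroid markers, HBB was listed at 0 in all 12 libraries. The 4 epithelial markers summed to at least 7.75 FPKM in the MOLM-13 libraries and to between 0.649 and 4.87 FPKM in the THP-1 libraries. In bulk RNA, fewer cells expressing a gene and less of its RNA per cell cannot be told apart.

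Glucose enters cells through facilitative transporters such as SLC2A1 (GLUT1) and SLC2A3 (GLUT3), and hexokinase traps it as glucose 6-phosphate. Phosphofructokinase, aldolase, glyceraldehyde 3-phosphate dehydrogenase, enolase and pyruvate kinase then carry it to pyruvate, which LDHA reduces to lactate or which enters the mitochondria through pyruvate dehydrogenase, the enzyme that PDK1 inhibits. Many of these genes are known targets of the hypoxia-inducible factors and of MYC, and leukemia cells commonly use glycolysis heavily even when oxygen is present.

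The hypoxia-inducible factors bind DNA at a core of ACGTG or GCGTG, and MYC binds the E-box CACGTG. The promoters of the genes were searched on both strands for ACGTG and for the E-box, so the GCGTG form was not counted. RefSeq promoters of GRCh38.p14 were found for 9 of the 10 genes, all but SLC2A3, as 17 windows of the 250 bases before each start site. At least 1 ACGTG lay in the windows of 6 of the 9 genes (ALDOA, GAPDH, HK2, LDHA, PDK1 and PFKP), against 21.7% of 27305 genes, or in 9 of 17 windows against 18.5% of 35116 windows. The E-box, which contains ACGTG, was found for 4 of the 9 (ALDOA, GAPDH, HK2 and LDHA), against 7.73% of all genes. By windows it lay in 4 of 17, against 6.34% of all windows. The 9 genes had more windows per gene than all genes, and so more places for a match, which the shares by gene do not allow for. The windows of ENO1, SLC2A1 and PKM held neither run of letters. The windows below are shown because this LDHA window held the most matches of the 17, PDK1 was one of the genes that set 2 MOLM-13 libraries apart, and PKM, with no match, had the largest log2 fold change with JOA in THP-1 among the 9 genes. Each is written from 5′ to 3′ in the direction of the gene, with the matches to ACGTG or its reverse complement, and the E-boxes that hold them, in capitals.
LDHA, chr11:18394313-18394562, plus strand: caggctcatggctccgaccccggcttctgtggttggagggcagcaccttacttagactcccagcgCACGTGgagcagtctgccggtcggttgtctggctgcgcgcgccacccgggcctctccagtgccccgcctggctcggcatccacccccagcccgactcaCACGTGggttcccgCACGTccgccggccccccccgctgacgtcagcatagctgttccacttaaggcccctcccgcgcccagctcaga
PDK1, chr2:172555840-172556089, plus strand: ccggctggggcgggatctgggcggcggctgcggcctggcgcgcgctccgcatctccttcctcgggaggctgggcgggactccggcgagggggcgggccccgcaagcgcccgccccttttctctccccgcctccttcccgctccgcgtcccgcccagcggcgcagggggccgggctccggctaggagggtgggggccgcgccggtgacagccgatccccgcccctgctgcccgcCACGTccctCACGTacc
PKM, chr15:72231191-72231440, minus strand: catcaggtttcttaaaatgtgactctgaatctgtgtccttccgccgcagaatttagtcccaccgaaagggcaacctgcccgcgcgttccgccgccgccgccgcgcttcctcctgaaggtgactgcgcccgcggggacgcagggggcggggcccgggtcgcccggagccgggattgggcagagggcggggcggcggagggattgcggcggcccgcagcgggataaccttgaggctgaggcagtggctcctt
In the LDHA window, 5 matches were counted when each E-box is read on both strands, 2 of the sites being E-boxes. The PDK1 window held 2 matches, close to the start site, and 0 E-boxes. The other window of PDK1 (chr2:172555123-172555372) and that of LDHA (chr11:18396101-18396350) held 0 matches. A match of letters is a description of the sequence and not evidence that a factor bound there.

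Without JOA, the enzymes of lower glycolysis were among the most abundant messages of both lines, and the transporters, HK2, PFKP and PDK1 were far lower. GAPDH, which oxidises glyceraldehyde 3-phosphate, stood at 1661 ± 63.0 FPKM in MOLM-13 controls and 1542 ± 110 FPKM in THP-1 controls (mean ± SD, n = 3, as for the values that follow), rank 21 and rank 13 of 20030 genes. The order in MOLM-13 was then ENO1, LDHA, ALDOA, PKM, SLC2A3, PFKP, HK2, SLC2A1 and PDK1, the last at 3.11 ± 0.797 FPKM. In that order HK2 and SLC2A1 overlapped between libraries, and SLC2A3 overlapped with PFKP, HK2 and SLC2A1. In THP-1 controls the order was GAPDH, ENO1, PKM, LDHA, ALDOA, PFKP, SLC2A1, HK2, PDK1 and SLC2A3, with PKM and LDHA overlapping and PFKP and SLC2A1 overlapping. Together the 10 genes made up between 0.878% and 1.03% of the summed FPKM of a library, of which GAPDH alone gave 0.436% to 0.539%.

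**Figure D1:**
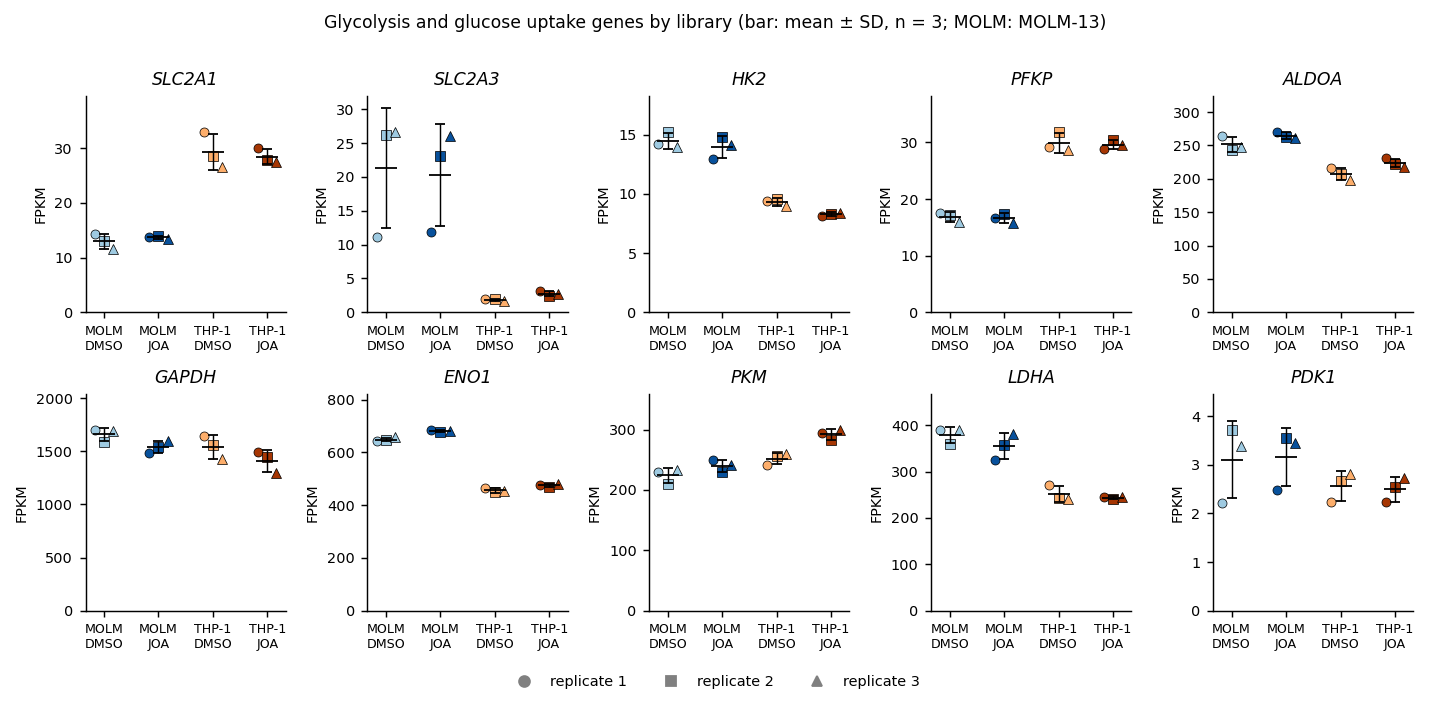
FPKM of each of the 10 genes (vertical axes, linear and starting at 0) in every library, by group on the horizontal axis, with replicate numbers as marker shapes and bars for the mean ± SD of 3 libraries. SLC2A3 averaged 21.3 FPKM in MOLM-13 controls and 1.86 FPKM in THP-1 controls, SLC2A1 13.0 and 29.4 FPKM, and replicate 1 of both MOLM-13 groups stood below the other two for SLC2A3 and PDK1.

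The lines differed in their transporter messages. SLC2A3, the high-affinity transporter, was at 11.1, 26.2 and 26.7 FPKM in the 3 MOLM-13 controls and at 1.93, 1.94 and 1.71 FPKM in the 3 THP-1 controls. Every MOLM-13 library lay above every THP-1 library, and the means were 11.5 times apart (log2 difference -3.35 ± 0.33 SE, THP-1 over MOLM-13, adjusted p = 1.3e-06, limma on all 12 libraries). SLC2A1, the basal transporter of most cells, went the other way, with 14.4, 13.0 and 11.5 FPKM in MOLM-13 controls and 33.0, 28.5 and 26.6 FPKM in THP-1 controls. These groups did not overlap either, and THP-1 was 2.27 times higher (log2 difference 1.17 ± 0.09, adjusted p = 1.1e-07). SLC2A5, a fructose transporter, was also higher in THP-1 (27.5 against 11.6 FPKM, log2 difference 1.32, adjusted p = 0.00019). As a share of the summed FPKM of SLC2A1, SLC2A3 and SLC2A5, SLC2A3 thus made up 45.0% ± 8.83 in MOLM-13 controls and 3.17% ± 0.105 in THP-1 controls. SLC2A3 has a near-identical copy, SLC2A14, and counting could have split reads between them. SLC2A14 was at 1.38 FPKM in MOLM-13 controls and 0.821 FPKM in THP-1 controls.

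Among the enzymes, 3 more genes differed between the controls by the rule used throughout, an adjusted p below 0.05 over all genes and a log2 difference of at least 0.58 in size. PFKP, the platelet-type phosphofructokinase, was higher in THP-1 (29.9 ± 1.77 against 16.9 ± 0.873 FPKM, log2 difference 0.82 ± 0.06, adjusted p = 9.4e-08). HK2, the inducible hexokinase, was lower (9.31 ± 0.311 against 14.5 ± 0.680 FPKM, log2 difference -0.63 ± 0.06, adjusted p = 1.2e-06). LDHA was lower as well (252 ± 17.2 against 379.7 ± 17.5 FPKM, log2 difference -0.59 ± 0.07, adjusted p = 6.8e-06). In all, 5 of the 10 genes passed, 2 higher and 3 lower in THP-1, while 44.0% of the 12626 genes tested passed, 25.0% higher and 19.1% lower in THP-1, so the share of these genes was near that of all genes. ENO1 (log2 difference -0.51), ALDOA (-0.28) and PKM (0.17) passed on the adjusted p but not on size, and GAPDH (-0.11, adjusted p = 0.23) and PDK1 (-0.24, adjusted p = 0.27) passed on neither. HK2 and LDHA sat close to the size limit. With each library rescaled to an equal sum of FPKM (the TPM scale) they gave -0.55 and -0.51, and LDHA gave -0.58, -0.57, -0.57 and -0.56 without MOLM-13 control replicate 1, MOLM-13 control replicate 3, THP-1 control replicate 2 or THP-1 control replicate 3.

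The isozyme mix within each family followed these differences. HK2 made up 65.3% ± 0.831 of the summed FPKM of HK1, HK2 and HK3 in MOLM-13 controls and 49.7% ± 3.17 in THP-1 controls, where HK3, the myeloid hexokinase, was higher (2.65 against 0.567 FPKM, log2 difference 2.07, adjusted p = 4.5e-05). PFKP was 32.3% ± 1.15 of PFKP, PFKL and PFKM in MOLM-13 and 44.8% ± 1.61 in THP-1. PFKM, the muscle form, was at 0.572 FPKM in MOLM-13 and 5.25 FPKM in THP-1 (log2 difference 3.01, adjusted p = 1.3e-09), and PFKL, the liver form, was at 34.9 and 31.5 FPKM. LDHA formed 54.4% ± 1.59 of LDHA and LDHB in MOLM-13 and 43.2% ± 1.43 in THP-1, with LDHB, the form that favours lactate oxidation, at 318 and 331 FPKM. Enolase and aldolase showed hardly any mix, since ENO1 gave at least 99.4% and ALDOA at least 96.8% of their families in every library. PDK1 was 36.7% ± 7.89 of PDK1 to PDK4 in MOLM-13 and 37.9% ± 3.06 in THP-1, while PDK3 was lower in THP-1 (log2 difference -0.85, adjusted p = 3.0e-05) and PDK4 higher (2.12, adjusted p = 0.0021).

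**Figure D2:**
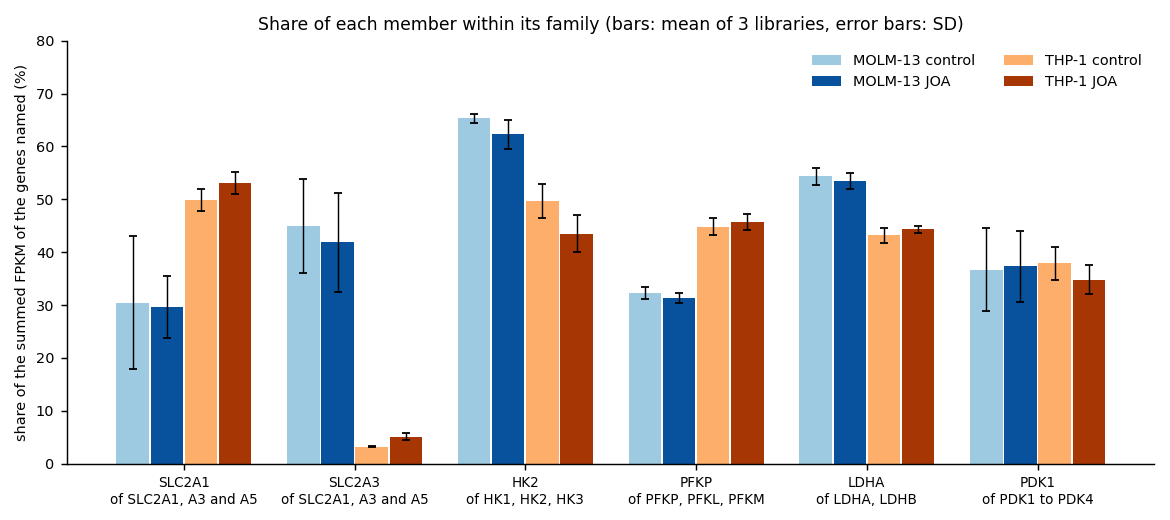
Share of each gene in the summed FPKM of its family, in percent (vertical axis, starting at 0), for 6 genes named on the horizontal axis, as the mean (bars) and SD (error bars) of the 3 libraries of each group. SLC2A3 held 45.0% in MOLM-13 controls and 3.17% in THP-1 controls. HK2 held 49.7% in THP-1 controls and 43.5% with JOA, with overlap between the libraries (lowest control 46.2%, highest JOA 46.8%).

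With JOA, 0 of the 10 genes passed the rule in THP-1 cells, and the changes were small in all but SLC2A3. Over all 12712 genes tested, 0.134% passed, and on the adjusted p alone 0 of 10 did, against 0.299% of all genes. At an unadjusted p below 0.05 there were 3 of the 10 (SLC2A3, PKM and HK2), against 16.9% of all genes. The median log2 fold change of the 10 genes was -0.02, beside 0.02 over all genes tested, with 4 genes higher and 6 lower. Neither the labels nor the methods of the study name a pairing, but control and JOA libraries of equal number deviated alike. With the replicate number as a block, again 0 of 10 passed, against 1.27% of all genes. On the adjusted p alone 2 of 10 then passed, SLC2A3 and PKM, against 8.06% of all genes, and 5 of 10 reached an unadjusted p below 0.05, against 26.0%.

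SLC2A3 in THP-1 was at 1.93, 1.94 and 1.71 FPKM in the controls and at 3.16, 2.40 and 2.66 FPKM with JOA. All JOA libraries lay above all controls, and the mean was 1.47 times higher (log2 fold change 0.53 ± 0.12 SE, 95% interval 0.25 to 0.80, adjusted p = 0.091, and 0.026 with the replicate block). The change stayed just under the size limit and the level stayed far below that of MOLM-13. SLC2A14, its near-identical copy, was at 0.821 FPKM in the controls and 0.623 FPKM with JOA (log2 fold change -0.37, adjusted p = 0.65). The sum of both copies was 2.41, 2.87 and 2.77 FPKM in the controls and 3.47, 3.22 and 3.40 FPKM with JOA, again without overlap. SLC2A1 was at 33.0, 28.5 and 26.6 FPKM without and 30.1, 27.8 and 27.4 FPKM with JOA, which overlapped (log2 fold change -0.04, 95% interval -0.23 to 0.15).

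The early kinases moved less. HK2 was at 9.41, 9.56 and 8.96 FPKM in THP-1 controls and at 8.10, 8.30 and 8.42 FPKM with JOA. The JOA libraries lay below the controls, but the difference was 11% of the mean and did not pass (log2 fold change -0.17 ± 0.06, adjusted p = 0.19, and 0.10 with the block). PFKP was at 29.1, 31.9 and 28.6 FPKM without and 28.9, 30.4 and 29.6 FPKM with JOA (log2 fold change -0.01, 95% interval -0.14 to 0.12).

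In lower glycolysis, PKM, the pyruvate kinase of most dividing cells, was at 241, 256 and 259 FPKM in THP-1 controls and at 294, 282 and 299 FPKM with JOA. The groups did not overlap and JOA was higher in each pair of equal number, by 0.29, 0.14 and 0.21 on the log2 scale (log2 fold change 0.21 ± 0.05, adjusted p = 0.11, and 0.033 with the block). ALDOA was at 216, 207 and 198 FPKM without and 231, 223 and 218 FPKM with JOA (log2 fold change 0.11, adjusted p = 0.33). ENO1 was at 466, 449 and 454 FPKM without and 478, 469.5 and 479.6 FPKM with JOA (log2 fold change 0.06, adjusted p = 0.58). Both sets were higher with JOA without overlap, although by a few percent. In THP-1, JOA values thus lay wholly above the controls for 4 of 10 genes, against 14.6% of all genes, and wholly below for 1 of 10, against 8.81%.

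The remaining genes of THP-1 overlapped. GAPDH was at 1640.2, 1562 and 1424 FPKM without and 1493, 1449.9 and 1297 FPKM with JOA. It was lower in each pair of equal number, by 0.11 to 0.14 on the log2 scale (log2 fold change -0.13 ± 0.08, adjusted p = 0.50, and 0.15 with the block). LDHA was at 271, 244 and 240.1 FPKM without and 246, 241 and 246 FPKM with JOA (log2 fold change -0.04, adjusted p = 0.77). PDK1, the kinase that inhibits pyruvate dehydrogenase, was at 2.23, 2.67 and 2.82 FPKM without and 2.23, 2.54 and 2.74 FPKM with JOA, nearly the same library by library (log2 fold change -0.04, adjusted p = 0.91).

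**Figure D3:**
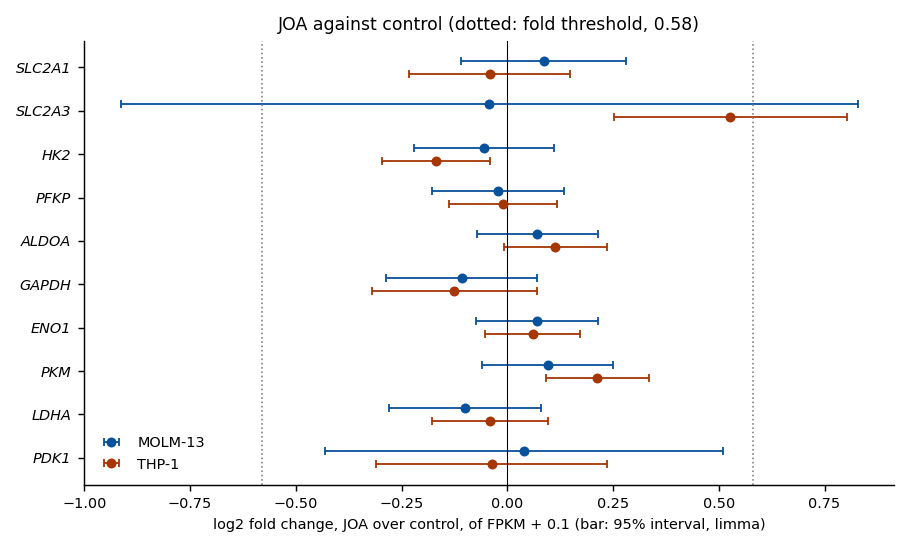
Log2 fold change of each gene with JOA over control (horizontal axis, on log2(FPKM + 0.1)) in MOLM-13 and THP-1 cells, as the limma estimate (points) with its 95% interval (bars), and dotted lines at the size limit of 0.58. All points but that of SLC2A3 in THP-1 (0.53) lay between -0.17 and 0.21, and the interval of SLC2A3 crossed a dotted line in both lines.

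In MOLM-13 cells, 0 of the 10 genes passed, as did 0% of all 11693 genes, with or without the replicate block and also on the adjusted p alone. At an unadjusted p below 0.05 there were 0 of 10 in both fits, against 4.11% of all genes without and 11.1% with the block. The median log2 fold change was 0.01 for the 10 genes and 0.01 over all genes, and the single values ran from -0.11 (GAPDH) to 0.10 (PKM). ENO1 was the single gene whose JOA libraries lay wholly above the controls, against 5.10% of all genes, at 644, 647 and 657 FPKM without and 686, 677 and 681 FPKM with JOA (log2 fold change 0.07 ± 0.06). Against 4.55% of all genes, 0 of the 10 lay wholly below.

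The other values in MOLM-13 overlapped. GAPDH was at 1702, 1589 and 1693 FPKM without and 1488, 1539 and 1596 FPKM with JOA, with 1 control library inside the JOA range. PKM was at 229.8, 210.3 and 233 FPKM without and 249, 229 and 241 FPKM with JOA (log2 fold change 0.10). In the pairs of equal number GAPDH was lower by 0.05 to 0.19 and PKM higher by 0.05 to 0.12 on the log2 scale, and neither reached an adjusted p below 0.47 in either fit. LDHA was at 389, 359 and 390.2 FPKM without and 326, 357 and 382 FPKM with JOA (log2 fold change -0.10). ALDOA was at 265, 243 and 247 FPKM without and 271, 263 and 260.4 FPKM with JOA (log2 fold change 0.07). LDHA, too, was lower in all 3 pairs, and ALDOA and ENO1 were higher in all 3.

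HK2 in MOLM-13 was at 14.2, 15.2 and 14.0 FPKM without and 12.9, 14.8 and 14.1 FPKM with JOA (log2 fold change -0.06). PFKP was at 17.5, 17.2 and 15.9 FPKM without and 16.7, 17.4 and 15.7 FPKM with JOA (log2 fold change -0.02). SLC2A1 was at 14.4, 13.0 and 11.5 FPKM without and 13.7, 14.0 and 13.4 FPKM with JOA (log2 fold change 0.09). For 9 of the 10 genes the 95% interval lay inside 0.58 in both directions, and the same held for 9 of 10 in THP-1, SLC2A3 being the exception in each line. A change of the size of the limit was therefore outside the interval for most of these genes, whereas for SLC2A3 in MOLM-13 the interval ran from -0.91 to 0.83. With the replicate block that interval was -0.18 to 0.10, and 10 of 10 lay inside the limit in MOLM-13, against 9 of 10 in THP-1, where SLC2A3 remained outside.

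The difference between the lines in the response to JOA was tested by the interaction of line and treatment over the 12 libraries. None of the 10 genes passed at an adjusted p below 0.05, as 0% of 12626 genes did, and 0 of 10 reached an unadjusted p below 0.05, against 7.24% of all genes. With the replicate block 0 of 10 passed, against 0.0475% of all genes, and 1 of 10 reached an unadjusted p below 0.05, against 14.9%. That gene was SLC2A3, whose log2 fold change was 0.57 higher in THP-1 than in MOLM-13 (adjusted p = 0.87, and 0.099 with the block). For PKM the difference was 0.12 (95% interval -0.06 to 0.30) and for GAPDH -0.02 (95% interval -0.27 to 0.23).

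The spread of SLC2A3 and PDK1 in MOLM-13 lay between replicate 1 and the other replicates, in control and JOA alike. SLC2A3 was at 11.1 FPKM in control replicate 1 and 11.8 FPKM in JOA replicate 1, which was 42.2% and 48.2% of the mean of replicates 2 and 3 of the same group (log2 differences -1.24 and -1.04). PDK1 was at 2.21 and 2.48 FPKM in these libraries, against 3.40 to 3.72 FPKM in the other 4 (log2 differences -0.66 and -0.48). The other 8 genes differed by less than 0.58 in both groups. At least 0.58 lower in both groups were 1 of the 10 genes, SLC2A3, and 1.09% of all 11693 genes. The coefficient of variation over all 6 MOLM-13 libraries, control and JOA together, was 35.3% for SLC2A3 and 20.0% for PDK1, beside a median of 7.48% over 9686 genes of at least 1 FPKM, while ENO1 gave 2.76%.

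Other genes induced by low oxygen were lower in the same libraries. Of the 9 genes of a list of hypoxia-induced genes outside glycolysis that were tested, all 9 were lower in replicate 1 in both groups, against 28.3% of all genes, and 4 of them were lower by at least 0.58 in both. DDIT4, an inhibitor of mTORC1 signalling, was at 9.24 FPKM in control replicate 1 and 55.6 and 42.8 FPKM in the other controls, and at 10.1 FPKM in JOA replicate 1 and 40.0 and 35.8 FPKM in the other JOA libraries. VEGFA, the vascular growth factor, was at 8.59 FPKM against 27.3 and 15.9 FPKM in the controls and at 9.15 FPKM against 20.2 and 15.2 FPKM with JOA. The remaining pair was ADM (log2 differences -1.70 and -1.98, below 1 FPKM in all libraries) and ANKRD37 (-0.71 in the controls, and lower still with JOA). Among the 10 genes, SLC2A3, PDK1 and HK2 (-0.04 and -0.16) were lower by any size in both groups. That share was near the 28.3% of all genes. PFKP, ALDOA and PKM were higher in both groups, and SLC2A1, GAPDH, ENO1 and LDHA differed in sign between the groups. Of the other glycolysis genes, PFKFB4 (-1.15 and -0.64), ALDOC (-1.24 and -0.65) and ENO2 (-0.69 and -0.90) were at least 0.58 lower in both groups, and HK3 was higher (0.61 and 0.63). In THP-1 cells 0 of the 10 genes, 0 of these 9 hypoxia-induced genes and 0.771% of all 12712 genes were at least 0.58 lower in replicate 1 of both groups, while among the other glycolysis and transport genes SLC2A14 (-0.92 and -1.10) and PDK4 (-1.64 and -0.62) were. Of the 9, NDRG1 lay nearest to that limit in THP-1 (-0.89 and -0.57). What set the libraries numbered 1 apart was not tested. Without replicate 1 of both MOLM-13 groups, the log2 fold change with JOA was -0.11 for SLC2A3 and -0.02 for PDK1, and the difference of SLC2A3 between the controls of the lines was -3.76. Without those libraries the PDK1 difference between the lines was -0.46, with an adjusted p of 0.0056, and it passed on the adjusted p.

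**Figure D4:**
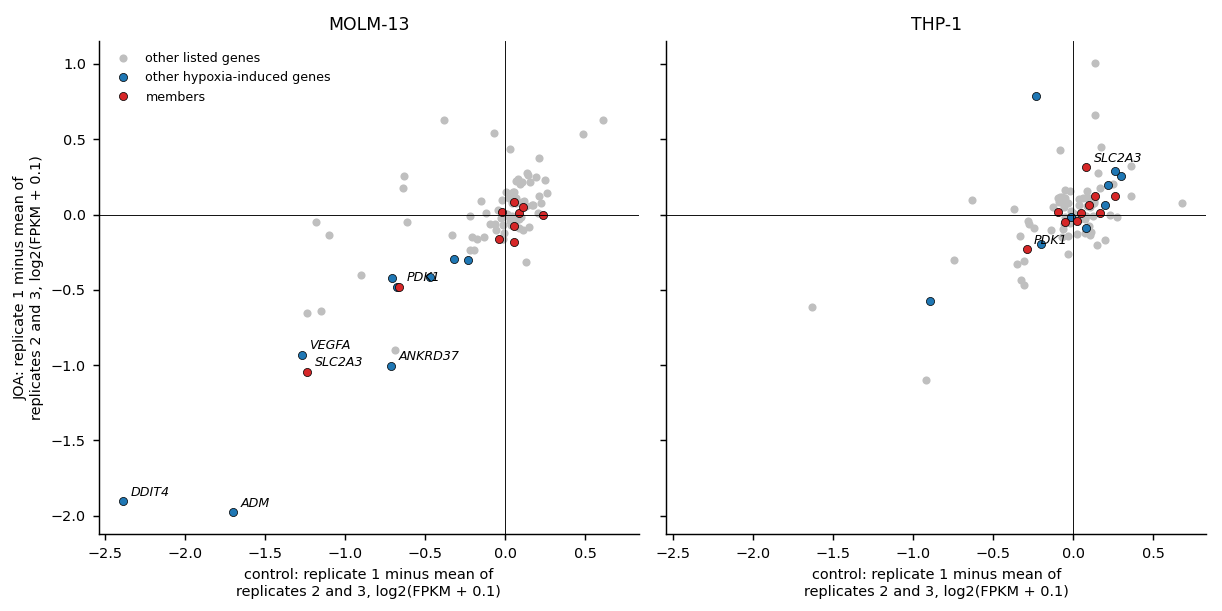
Difference of replicate 1 from the mean of replicates 2 and 3 on log2(FPKM + 0.1), in control (horizontal axis) and JOA (vertical axis), in MOLM-13 (left) and THP-1 (right), with the 10 genes in red, other hypoxia-induced genes in blue and the other listed genes in grey. In MOLM-13, SLC2A3 (-1.24 and -1.04) and PDK1 (-0.66 and -0.48) lay in the lower left among the hypoxia-induced genes, and in THP-1 both lay nearer to 0.

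The rest of the pathway was described from a list of 61 further genes of glucose transport, glycolysis, lactate handling and pyruvate entry into mitochondria. In THP-1, 46 of them were tested, 0 passed the rule with or without the block, and the median log2 fold change was 0.04. On the adjusted p alone 3 of the 46 passed with the block, PFKFB3 and ENO2 higher and SLC2A5 lower, a share below the 8.06% of all genes. PFKFB3, which makes the activator of phosphofructokinase, was at 9.88 FPKM without and 12.5 FPKM with JOA (log2 fold change 0.34, adjusted p = 0.26, and 0.014 with the block), and the fold change was 0.21 without THP-1 JOA replicate 3. ENO2, the neuronal enolase, was at 0.911 FPKM without and 1.31 FPKM with JOA (log2 fold change 0.49, adjusted p = 0.12, and 0.045 with the block). SLC2A5 was at 27.5 FPKM without and 22.4 FPKM with JOA, with every JOA library below every control (log2 fold change -0.30, adjusted p = 0.11, and 0.025 with the block).

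The partner isozymes and neighbouring steps gave small values with JOA in THP-1, namely TPI1 0.01, PGK1 0.05, PGAM1 -0.03, GPI 0.04, HK1 0.08, PFKL -0.04, PFKM -0.16, ALDOC 0.05, LDHB -0.11, PDK2 0.01 and PDK3 0.07 on the log2 scale. HK3 (0.37), PDK4 (0.87, below 1 FPKM) and ENO3 (0.31) were further from 0 and did not pass in either fit. HK3 gave 0.03 without THP-1 JOA replicate 1, and PDK4 gave 0.32 without THP-1 control replicate 1. In MOLM-13, 45 of the 61 were tested and 0 passed in either fit or on the adjusted p alone, with a median log2 fold change of 0.01. The furthest from 0 among genes of at least 1 FPKM were FBP1, a gluconeogenic phosphatase (0.55), SLC2A14 (0.32), SLC2A5 (0.28), SLC2A6 (0.27), PFKFB4 (0.27) and ALDOC (0.22), each with overlapping groups and an adjusted p of at least 0.39 in both fits. These values rested in large part on the libraries numbered 1. Without MOLM-13 control replicate 1 they were 0.42, -0.08, -0.09, 0.25, -0.11 and -0.20 in the same order, and without replicate 1 of both groups 0.21, -0.06, -0.04, 0.07, 0.10 and 0.02. HK3, which averaged below 1 FPKM in MOLM-13 and was picked out after its values were seen, was at 0.763, 0.524 and 0.413 FPKM without and 1.52, 1.12 and 0.805 FPKM with JOA. Its JOA libraries lay wholly above the controls (log2 fold change 0.90 ± 0.26, adjusted p = 0.22 with the block), and the fold change was 0.89 without replicate 1 of both groups.

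In the branches that leave glycolysis, PGD was higher with JOA in THP-1 on the adjusted p. Of 14 genes of the pentose phosphate pathway and of glycogen metabolism, all tested, 0 passed the rule, 1 was higher on the adjusted p alone, and with the block 5 were higher and 0 lower on the adjusted p alone. Over all genes, 0.189% were higher on the adjusted p alone and 5.37% with the block. PGD, which makes NADPH as phosphogluconate dehydrogenase, was at 156, 152 and 164 FPKM in the controls and at 239, 205 and 224 FPKM with JOA (log2 fold change 0.50 ± 0.07, adjusted p = 0.039, and 0.0066 with the block). The groups did not overlap. Without any single THP-1 library the log2 fold change of PGD lay between 0.44 and 0.56, with an adjusted p from 0.071 to 0.22 without the block. TKT (0.23) and TALDO1 (0.20), which lead back into glycolysis, and the glycogen genes GYG1 (0.21) and PYGL (0.21) also reached an adjusted p below 0.05 with the block. In MOLM-13, 0 of the 14 passed on the adjusted p in either fit. PGD there was at 123, 117 and 121 FPKM without and 150.2, 134 and 137 FPKM with JOA, which did not overlap (log2 fold change 0.22, adjusted p = 0.30 with the block).

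Of 25 genes that control the pathway, 23 were tested in each line. In MOLM-13 0 of them passed in either fit, the furthest from 0 being ANKRD37 (-0.42), ARRDC4 (0.30) and NDRG1 (0.23) among genes of at least 1 FPKM. ANKRD37 gave -0.09 without MOLM-13 JOA replicate 1, and ARRDC4 and NDRG1 gave 0.09 and -0.01 without MOLM-13 control replicate 1. In THP-1 0 passed without the block, against 0.134% of all genes, and 1 with it, against 1.27%. On the adjusted p alone with the block, TXNIP, P4HA1 and MYC were among the genes that passed, against 8.06% of all genes. The 1 gene that passed the rule with the block was TXNIP, an arrestin that restrains glucose uptake and is induced by glucose. It was at 24.3, 31.1 and 31.0 FPKM in THP-1 controls and at 15.6, 20.0 and 19.2 FPKM with JOA, wholly below the controls (log2 fold change -0.65 ± 0.12, adjusted p = 0.075, and 0.0022 with the block). Its relative ARRDC4 was at 2.14 FPKM without and 1.48 FPKM with JOA, with overlap (log2 fold change -0.51, adjusted p = 0.22, and 0.059 with the block). P4HA1, a hypoxia-induced prolyl hydroxylase, was at 17.4 FPKM without and 22.6 FPKM with JOA (log2 fold change 0.37, adjusted p = 0.15, and 0.0084 with the block). NDRG1, a hypoxia-induced stress gene, was at 6.33 and 7.73 FPKM (log2 fold change 0.32, adjusted p = 0.59, and 0.050 with the block), and it gave 0.02 without THP-1 control replicate 1. MYC was at 36.4 and 32.4 FPKM (log2 fold change -0.17, adjusted p = 0.18, and 0.044 with the block). Over the 9 hypoxia-induced genes outside glycolysis the median log2 fold change with JOA was 0.04 in THP-1 and 0.01 in MOLM-13. Between the control groups of the lines, 6 of these 9 were lower in THP-1 by the rule and 0 higher, against 19.1% and 25.0% of all genes. Of 7 genes of the hypoxia factors and their control, 4 were higher and 0 lower.

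GAPDH was also the reference gene of the RT-PCR in the study, so its own shift was set beside 15 other common reference genes. By the size of its log2 fold change it ranked 4 of 16 in MOLM-13 (-0.11) and 5 of 16 in THP-1 (-0.13), where rank 1 is the largest change. In THP-1 the larger ones were GUSB (0.43), RPLP0 (-0.25), RPL13A (-0.22) and B2M (-0.14), the smallest was IPO8 (-0.02), and the rest lay between -0.12 (PPIA) and 0.09 (TBP). Of these, GUSB and RPLP0 reached an adjusted p below 0.05 with the block (0.017 and 0.024), and GUSB gave 0.26 without THP-1 control replicate 1. PGK1, itself a glycolytic gene, gave 0.05 in THP-1 and 0.02 in MOLM-13. KIT, a target of that RT-PCR, was at 1.93, 1.61 and 1.21 FPKM in THP-1 controls and 0.445, 0.623 and 0.489 FPKM with JOA, wholly lower (log2 fold change -1.43, adjusted p = 0.039). Taken relative to GAPDH within each library KIT gave -1.31, relative to the other 15 genes a median of -1.46, with a range from -1.86 (GUSB) to -1.19 (RPLP0). The other targets were ALDH3A1 and CALML6 in MOLM-13, both below 1 FPKM. Relative to GAPDH, ALDH3A1 gave -0.60 (SD over pairs 0.95), with a range over the others from -0.90 (GUSB) to -0.56 (TBP). CALML6 gave 0.41 (SD 0.41), with a range from 0.11 (GUSB) to 0.45 (TBP). The RT-PCR legend gives 72 h. GAPDH has 62 named pseudogenes in GENCODE release 29, none with a row in the table, so reads that match both could have gone to GAPDH or been dropped.

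**Figure D5:**
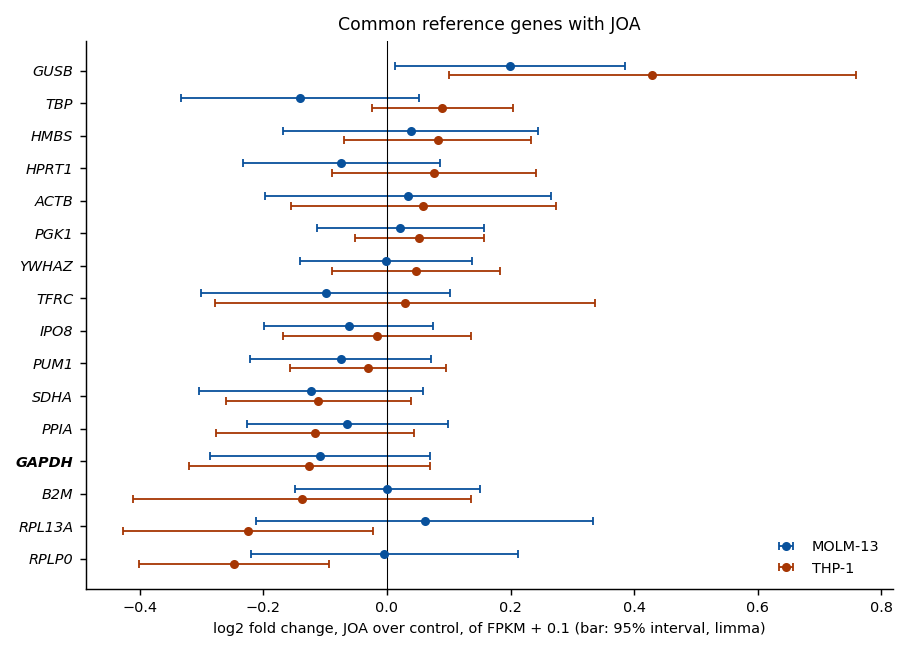
Log2 fold change with JOA over control (horizontal axis, on log2(FPKM + 0.1)) of 16 common reference genes in MOLM-13 and THP-1, as the limma estimate (points) with its 95% interval (bars), ordered by the value in THP-1. GAPDH (-0.11 in MOLM-13 and -0.13 in THP-1) lay below 0 in both lines with intervals that held 0, and GUSB (0.43) in THP-1 lay above it.

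On GRCh38, with GENCODE release 29, the genes are spread over the genome. SLC2A3 (chr12:7919230-7936275) and GAPDH (chr12:6533927-6538374) share chromosome 12, SLC2A1 (chr1:42925375-42959176) and ENO1 (chr1:8861000-8879250) share chromosome 1, and HK2 (chr2:74833981-74893359) and PDK1 (chr2:172555373-172608669) share chromosome 2. PKM lies at chr15:72199029-72231822, LDHA at chr11:18394388-18408425, ALDOA at chr16:30064164-30070457 and PFKP at chr10:3066333-3137712. The values are sums over each gene and do not separate isoforms, so the muscle and embryonic forms of PKM cannot be told apart.

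The likeness of other genes to the 10 was measured over the 12 libraries by Pearson's r with the mean, over the 10 genes, of the deviation of log2(FPKM + 0.1) from its mean in the line. That score was lowest in MOLM-13 replicate 1 of JOA (-0.12) and of control (-0.09), so it followed mostly the libraries named above. Among 9230 genes the highest r was that of TMEM161B (0.94), then COL4A3BP, ZNF217, NCOA7 and CCL3 (0.91), and the lowest was that of COA3 (-0.92), then DYNLL2, SERF2, TUSC2 and TRIM28 (-0.89). These values describe 12 libraries that share line and replicate number, and the genes were picked from many.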

How the data were processed

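Messenger RNA of MOLM-13 and THP-1 cells was measured in 12 libraries, made with a stranded kit and sequenced in pairs. For each gene of each library the authors deposited an FPKM value, scaled to gene length and mapped fragments, and their processing notes name Trimmomatic, HISAT2, Cufflinks, HTSeq and the build hg38. The annotation and the share of each tool are not given in the sources used here. Groups, doses and replicate numbers come from the labels, which give 48 h, while a figure legend of the study gives 72 h.

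No rescaling was applied to them. Within a line, genes averaging 0.1 FPKM or more entered the fit, and log2(FPKM + 0.1) was compared with limma 3.58.1 under R 4.3.3 (lmFit and a trended eBayes, two-sided), with Benjamini-Hochberg adjustment over all genes. Fold changes are on that log2 scale, which understates changes of low genes. A call needed an adjusted p below 0.05 and a log2 fold change of at least 0.58 in size, the interaction of line and JOA the adjusted p alone. All 10 genes passed the filter in every fit. The line contrast and the interaction were fitted over 12 libraries. The authors' own test, DESeq, works on counts and could not be applied to FPKM.

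Same-numbered control and JOA libraries deviated together from their group means (r over genes of 0.40, 0.26 and 0.30 in MOLM-13 and 0.28, 0.14 and 0.32 in THP-1, against -0.26 to 0.02 for other pairs), so the fit with the replicate number as a block is given beside the results. The replicate numbers come from the labels, and neither the labels nor the methods of the study name a pairing. Deviations from a group mean cancel within the group, so positive values for equal numbers force lower ones for the other pairs.

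The 10 genes and the lists were chosen with earlier results of these data known. Named beside the 10 were listed genes called with or without the block, the 10 of at least 1 FPKM with the largest change in each line, fixed partner isozymes and reference genes, and the 5 genes most and the 5 least like the 10. Genes named for passing on the adjusted p alone or for their difference in replicate 1 were chosen after their values were seen. The alternatives were pseudocounts of 1 and 0.01, filters at a mean of 1 FPKM and at any value above 0, scaling to an equal sum (the TPM scale) or by median ratios, eBayes without trend, the block, 1 fit on all 12 libraries, the call rule, leaving out each library and, chosen after seeing the data, leaving out both MOLM-13 libraries numbered 1 and leaving out libraries for the other named genes. Some listed genes are not reported here. The procedure was tested on simulated data.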

Additional observations from a re-analysis of the deposited data

How the results depend on the processing

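The count of 0 of the 10 genes called with JOA held in both lines, and for the interaction, under each alternative taken singly. Among these were the other pseudocounts, filters and scalings, the fit without trend and leaving out each library. The block joined with the adjusted p alone was not one of them. By that rule SLC2A3 and PKM, alone of the 10, passed in THP-1, against 8.06% of all genes. With the replicate block, 0 of 10 were called in MOLM-13, THP-1 and the interaction, and the calls over all genes went from 17 to 161 in THP-1, from 0 to 6 in the interaction and stayed at 0 in MOLM-13. Over all alternatives the calls over all genes ran from 0 to 1 in MOLM-13, from 0 to 161 in THP-1 and from 3870 to 9281 between the lines. The median log2 fold change of the 10 genes ran from -0.053 to 0.060 in MOLM-13 and from -0.028 to 0.030 in THP-1 when single libraries were left out.

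Between the controls of the lines, 5 of the 10 genes were called, 3 on the TPM scale, where HK2 and LDHA fell under the size limit, and 8 on the adjusted p alone. KIT in THP-1 relative to GUSB gave -1.86, against -1.31 relative to GAPDH. Some values near 0 changed sign, none of them called. When single libraries, or both MOLM-13 libraries numbered 1, were left out, the log2 fold change in MOLM-13 ran from -0.46 to 0.31 for SLC2A3, from -0.064 to 0.018 for PFKP and from -0.18 to 0.20 for PDK1. In THP-1 it ran from -0.11 to 0.045 for SLC2A1, from -0.040 to 0.038 for PFKP, from -0.074 to 0.014 for LDHA and from -0.13 to 0.040 for PDK1, and PFKP gave 0.014 on the TPM scale, with each library rescaled to an equal sum. Without single MOLM-13 libraries, or both numbered 1, SLC2A14 ran from -0.076 to 0.52, SLC2A5 from -0.087 to 0.50, PFKFB4 from -0.11 to 0.48, NDRG1 from -0.0082 to 0.38 and ALDOC from -0.20 to 0.44 in MOLM-13. The causes were not tested. SLC2A3 in THP-1 lay between 0.38 and 0.62 and PKM between 0.18 and 0.24 over all their alternatives, with adjusted p from 0.026 to 0.47 and from 0.033 to 0.31. With 3 libraries a group and unknown depth, a change whose interval held 0 could not be told from no change. The intervals are not adjusted for the number of genes.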
